A study of Mus musculus with 6 samples.

Results

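The 10 genes Arntl, Clock, Per1, Per2, Per3, Cry1, Cry2, Nr1d1, Nr1d2 and Dbp, which make up the core loops of the circadian clock and one of its output factors, were taken by gene symbol from the expression values of 18112 genes in primary mouse aortic vascular smooth muscle cells (VSMCs). Each of the 10 symbols matched 1 gene, and all 10 were among the 12565 genes that averaged 0.5 FPKM or more over the 6 libraries (FPKM scales fragments by transcript length and library size, so that levels can be set side by side between genes). The study compared cells of Smyd2 fl/fl mice (labelled Flox) with cells of Smyd2 SMC-/- mice (labelled SMYD2 KO), 3 libraries each, numbered as replicates 1, 2 and 3 in both groups. SMYD2 is a lysine methyltransferase. Both groups were homozygous for a Smyd2 allele with loxP sites around exon 2 on the C57BL/6 strain, the Smyd2 SMC-/- mice carried in addition Tagln-Cre (SM22α-Cre), and the controls were littermates without a stated Cre. The groups are called control and knockout in what follows. Mice were 8 to 10 weeks old, and cells came from the digested medial layer of the thoracic aorta, with endothelium and adventitia removed. Tagln-Cre deletes in cells that have switched on Tagln, so that a cell in culture that never did so keeps the floxed allele.

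The labels give passage 6 cells in medium with 10% FBS, whereas the methods of the study describe an earlier passage and overnight starvation before harvest. The sources used here do not give the hour of harvest, the time since the last change of medium, or what the replicate numbers stand for. With 1 harvest per library, the level of a rhythmic gene and its place in the daily cycle cannot be told apart. The labels do not say whether the 3 libraries of a group came from separate animals or cultures, so that p-values measure the spread between these libraries only. From the steps between low FPKM values, depth was estimated at 17750000 to 20450000 fragments per library, and the least covered clock gene value, Dbp in control replicate 1, stood for about 88.6 fragments.

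In the molecular clock, CLOCK and ARNTL (BMAL1) form a heterodimer that binds E-box elements and switches on the Per and Cry genes, whose proteins return to inhibit the heterodimer. The nuclear receptors NR1D1 and NR1D2 (REV-ERBs), also E-box targets, repress Arntl, and DBP, another E-box target, activates genes with D-box elements. Vascular smooth muscle holds such a clock, and in cultured cells serum or glucocorticoid can reset its phase.

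The 250 bases before and 50 after annotated start sites were available from RefSeq (GRCm38.p6) for 9 of the 10 genes (all but Per2) in 13 windows. The E-box letters CACGTG, a palindrome and thus the same on both strands, occurred in 2 of these windows, those of Per1 and Cry1, against 7.15% of all 32851 promoter windows. The D-box letters TTATGTAA, searched on both strands, occurred in the window of Per3 alone, at 2 places, against 0.938% of all windows. Both stretches with an E-box are shown because Per1 and Cry1 were higher in both replicate 1 libraries, and that of Per3 because the protein of Dbp binds the D-box, with the E-box or D-box alone in capitals and each read 5′ to 3′ on the strand of the gene. Arntl and Cry2 were also higher in both replicate 1 libraries, without the letters CACGTG in their windows. The Per1 stretch is chr11:69098753-69098818 (plus strand), with its E-box beginning 166 bases before the start site. The Cry1 stretch is chr10:85185079-85185144 (minus strand), with its E-box 60 bases before the start site. The Per3 stretch is chr4:151044786-151044900 (minus strand), with D-boxes 205 and 158 bases before the start site.
Per1: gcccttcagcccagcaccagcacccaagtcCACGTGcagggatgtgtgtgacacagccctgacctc
Cry1: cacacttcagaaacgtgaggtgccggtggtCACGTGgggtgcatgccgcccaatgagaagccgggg
Per3: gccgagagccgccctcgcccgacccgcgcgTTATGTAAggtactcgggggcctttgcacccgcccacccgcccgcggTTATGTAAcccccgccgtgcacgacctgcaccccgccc
The letters CACGTT, searched on both strands, were found in the windows of Cry1, Cry2 and Nr1d1 (3 of 13 windows, 4.69% of all), and AGGTCA, the half-site that REV-ERB and ROR receptors bind, in those of Arntl, Clock, Nr1d2 and Per1 (4 of 13, 16.3% of all). The letters TGACGTCA, the cyclic AMP response element, were in 0 of the 13 windows and in 1.79% of all. None of these motifs contains another, and matches describe letters in short windows that say nothing of binding.

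The targeted gene, Smyd2, was measured at 7.87, 3.10 and 3.0 FPKM in control replicates 1, 2 and 3, and at 1.67, 0.40 and 0.80 FPKM in knockout replicates 1 to 3. Every knockout library lay below every control library, although replicate 1 was the highest of each group, with a log2 difference of −1.48 (limma adjusted p = 0.105, or 0.0189 in the fit with a replicate block). Of 8 smooth muscle markers, 5 had a mean of at least 0.5 FPKM, led by Acta2, and Myh11, Myocd and Des, which mark contractile muscle cells, stayed under 0.5 FPKM in every library. The summed level of the 8 was 922.0, 821.4 and 814.1 FPKM in control cells and 263.3, 428.9 and 376.5 FPKM in knockout cells. The sum mainly followed Acta2, with means of 708.9 FPKM in control and 243.6 FPKM in knockout cells. Smtn was about level (means 53.3 and 51.9 FPKM). Lmod1 had a higher mean in knockout cells (2.94 and 4.23 FPKM, limma adjusted p = 0.817). However, its knockout replicate 1, at 1.22 FPKM, was the lowest of all libraries, against 5.44 and 6.02 FPKM in knockout replicates 2 and 3. Tagln and Cnn1 had lower means in knockout cells, but in replicates 2 and 3 alone their log2 differences were −0.08 and −0.07. The label smooth muscle thus rests here on Acta2, Tagln, Cnn1, Smtn and Lmod1 and not on the late contractile markers. In such bulk samples, fewer cells of a type and less RNA per cell cannot be told apart.

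Between genotypes, 0 of the 10 clock genes passed an adjusted p under 0.05 in limma, where 306 of 12565 genes did (2.44%), and 2 of the 10, Clock and Per2, had an unadjusted p under 0.05, as did 20.3% of all tested genes. Clock and Per2 were also the 2 genes for which every knockout library lay above every control library, a pattern seen in 13.1% of all tested genes (28.1% in either direction). On the log2 scale, 7 of the 10 stood above 0 in knockout cells, with a median of 0.16, against 48.0% of all tested genes and a median of −0.02, and Cry1 alone changed sides under another scaling (TPM). By either p the share of clock genes was thus no higher than the share of all genes. Of the 306 genes, 154 were higher and 152 lower, and after rescaling to TPM 247 were higher and 99 lower. The number of genes that passed rested on single libraries: without control replicate 2 or 3 it was 34 or 36, without knockout replicate 1, 2 or 3 it was 686, 55 or 39, while 0 clock genes passed in each of these cases.

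**Figure D1:**
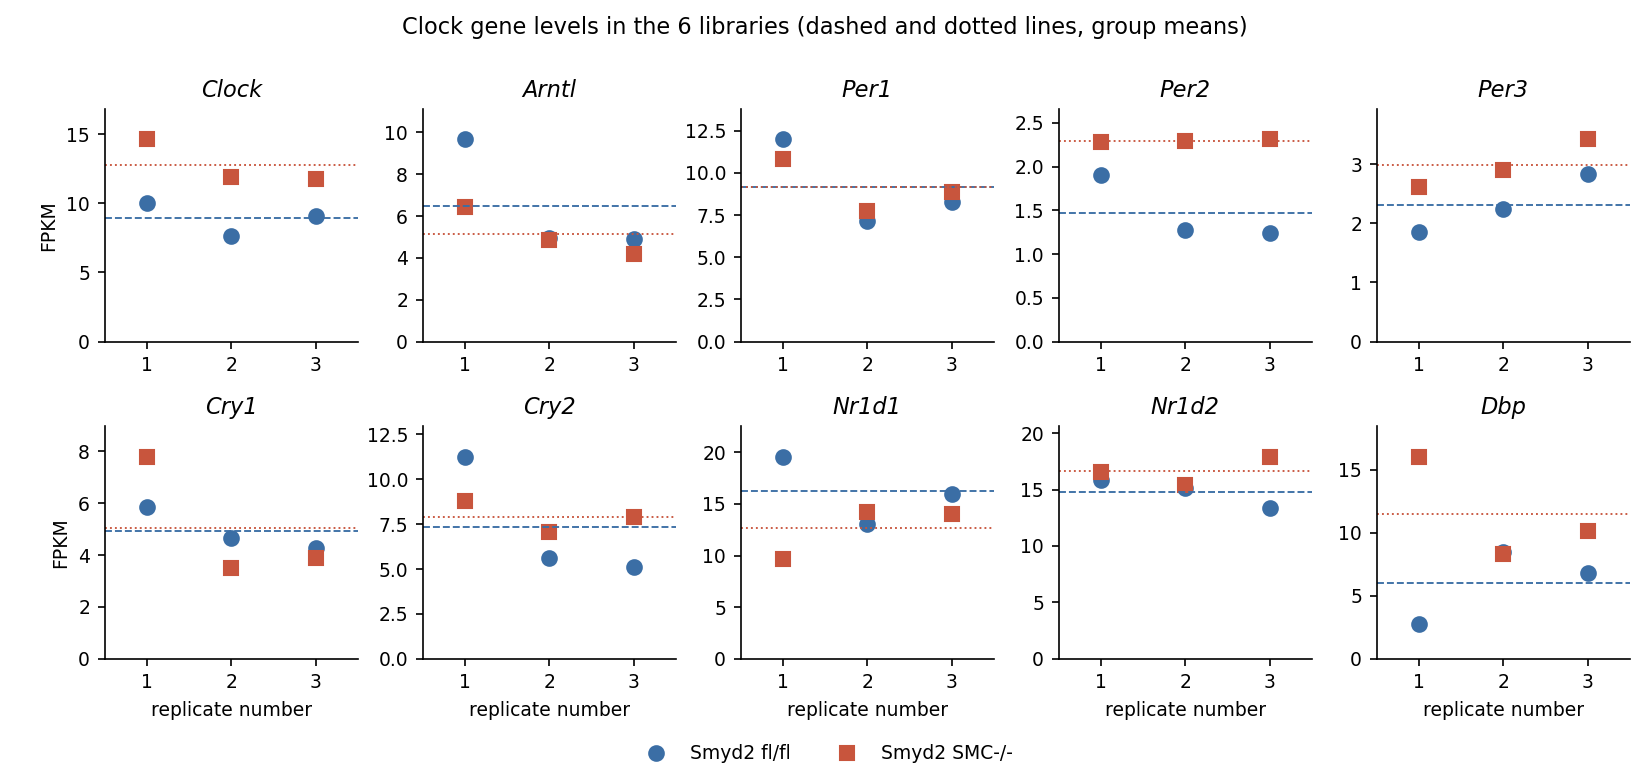
FPKM of each of the 10 clock genes (vertical axis, from 0) against replicate number (horizontal axis), with 1 point per library, circles for Smyd2 fl/fl and squares for Smyd2 SMC-/-, and lines at the group means (n = 3). Every square lies above every circle for Clock and Per2, and Dbp spans 2.74 to 16.03 FPKM within replicate 1.

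Among the activators, Clock (NCBI Gene 12753) was measured at 9.99, 7.61 and 9.09 FPKM in control replicates 1, 2 and 3 and at 14.61, 11.90 and 11.75 FPKM in knockout replicates 1 to 3. The groups did not overlap, and knockout cells were above the control in each same-numbered pair, by a factor of 1.46, 1.56 and 1.29. Its mean was 8.90 ± 1.20 FPKM (SD, n = 3) in control and 12.8 ± 1.61 FPKM (SD, n = 3) in knockout cells. The log2 difference of 0.48 had a standard error of 0.158 and a 95% interval of 0.10 to 0.85 (limma adjusted p = 0.166, p = 0.1 in a two-sided exact permutation test, the minimum with 3 against 3 libraries). It was above 0 under all 13 alternatives, with log2 differences from 0.38 to 0.62, as were Per2, Per3, Nr1d2 and Dbp. For Clock and Per2, whose groups did not overlap, neither omission of libraries nor another pseudocount could turn the sign. The blocks and the lack of a filter left the log2 difference of every gene unchanged by construction. The count of 13 is thus no measure of robustness. Arntl (NCBI Gene 11865), the partner of Clock, was at 9.66, 4.95 and 4.88 FPKM in control cells and 6.41, 4.85 and 4.20 FPKM in knockout replicates 1 to 3. The groups overlapped, and the replicate 1 libraries were the 2 highest of the 6. Its log2 difference between genotypes was −0.24 (standard error 0.280, limma adjusted p = 0.695), and without control replicate 1 it was 0.04. The ratio of Clock to Arntl was 1.03, 1.54 and 1.86 in control cells and 2.28, 2.45 and 2.80 in knockout cells, each a ratio of FPKM within 1 library. These ratios, chosen after the values were seen and not tested, were higher in every knockout library than in any control.

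Of the period genes, whose proteins inhibit CLOCK and ARNTL, Per2 (NCBI Gene 18627) was at 1.90, 1.28 and 1.24 FPKM in control cells and 2.28, 2.29 and 2.31 FPKM in knockout replicates 1 to 3. The knockout libraries lay within a narrow range above all controls, and replicate 1 was the control closest to them. Its mean was 1.47 ± 0.370 FPKM (SD, n = 3) in control and 2.29 ± 0.0153 FPKM (SD, n = 3) in knockout cells, and the lowest value stood for about 138.8 fragments. The log2 difference, which is compressed at this low level by the pseudocount of 1, was 0.42 (standard error 0.173, 95% interval 0.01 to 0.84, limma adjusted p = 0.238, two-sided exact permutation test p = 0.1). Per3 (NCBI Gene 18628), the period gene that is dispensable for the core rhythm, was at 1.86, 2.24 and 2.83 FPKM in control cells and 2.62, 2.90 and 3.42 FPKM in knockout cells. The knockout was above the control in all 3 same-numbered pairs, but the groups overlapped (log2 difference 0.27, standard error 0.183, limma adjusted p = 0.474). Per1 (NCBI Gene 18626), which also responds quickly to resetting signals, was at 11.99, 7.18 and 8.29 FPKM in control cells and 10.84, 7.75 and 8.90 FPKM in knockout cells. The group means of Per1 were 9.15 and 9.16 FPKM, a log2 difference of 0.02 with a 95% interval of −0.50 to 0.54 (limma adjusted p = 0.974). Within a library Per1 was 5.61 to 6.69 times Per2 in control cells and 3.38 to 4.75 times Per2 in knockout cells, given as a description.

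The cryptochromes join the PER proteins in the repressor complex. Cry1 (NCBI Gene 12952) was at 5.87, 4.65 and 4.29 FPKM in control cells and 7.79, 3.49 and 3.89 FPKM in knockout replicates 1 to 3. Its genotype difference ran in opposite directions, the knockout being above the control in replicate 1 and below it in replicates 2 and 3, and averaged a log2 difference of −0.03 (standard error 0.284, limma adjusted p = 0.969), which turned to 0.07 after rescaling to TPM. Cry2 (NCBI Gene 12953) was at 11.26, 5.59 and 5.12 FPKM in control cells and 8.81, 7.05 and 7.91 FPKM in knockout cells. Here the order was the reverse, with the knockout below the control in replicate 1 and above it in replicates 2 and 3 (log2 difference 0.17, standard error 0.282, limma adjusted p = 0.798).

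Nr1d2 and Nr1d1 had the highest mean levels of the 10 genes. Nr1d2 (NCBI Gene 353187) was at 15.81, 15.18 and 13.34 FPKM in control cells and 16.55, 15.38 and 17.91 FPKM in knockout cells. It varied least in relative terms, from 13.34 to 17.91 FPKM over the 6 libraries, with means of 14.8 ± 1.28 and 16.6 ± 1.27 FPKM (SD, n = 3 each) and a log2 difference of 0.16 (standard error 0.130, limma adjusted p = 0.559). Nr1d1 (NCBI Gene 217166) was at 19.58, 13.08 and 15.97 FPKM in control cells and 9.69, 14.25 and 14.03 FPKM in knockout cells. Its highest and lowest values were the control and the knockout library of replicate 1, while the other 4 libraries lay within 13.08 to 15.97 FPKM (log2 difference −0.33, standard error 0.210, limma adjusted p = 0.439). Omission of single libraries put this difference between −0.47 and −0.17, and in replicates 2 and 3 alone it was −0.03. Dbp (NCBI Gene 13170) was at 2.74, 8.45 and 6.79 FPKM in control cells and 16.03, 8.30 and 10.12 FPKM in knockout cells. Replicate 1 again held both extremes, and the groups overlapped between 8.30 and 8.45 FPKM. With means of 5.99 ± 2.94 and 11.5 ± 4.04 FPKM (SD, n = 3 each), its log2 difference of 0.89 was the greatest of the 10 genes over all 6 libraries and also the least certain (standard error 0.394, 95% interval −0.05 to 1.84, limma adjusted p = 0.271, two-sided exact permutation test p = 0.2). Its rank rested on replicate 1, since without control replicate 1 it fell to 0.49, below Clock (0.55) and Per2 (0.54), and in replicates 2 and 3 alone to 0.25.

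**Figure D2:**
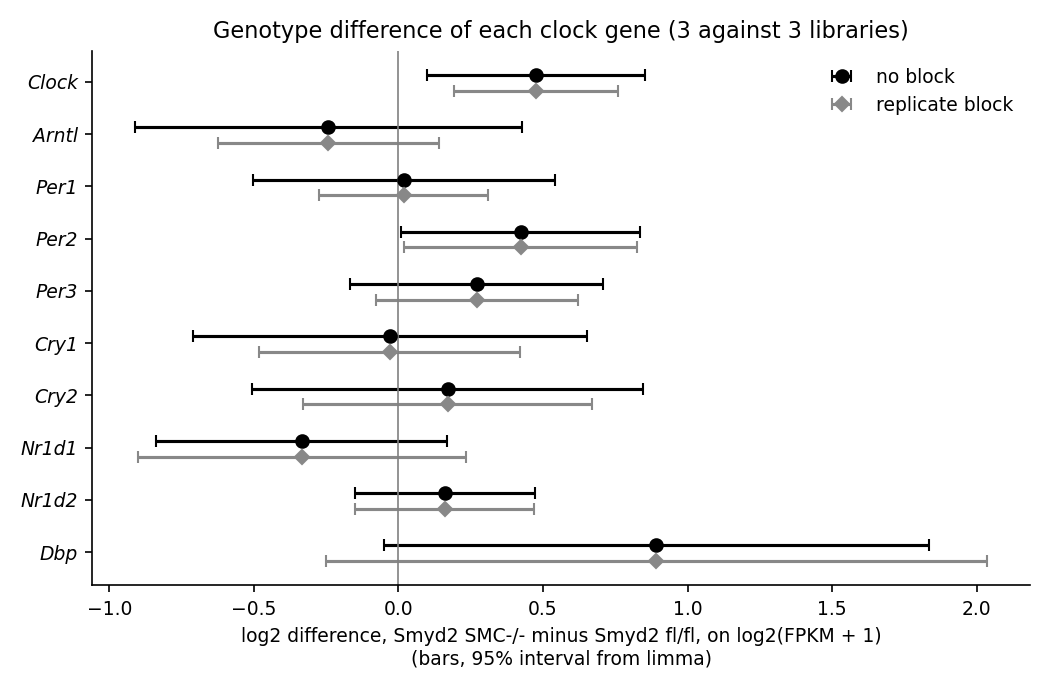
Log2 difference of each clock gene between genotypes (horizontal axis, Smyd2 SMC-/- minus Smyd2 fl/fl on log2(FPKM + 1), n = 3 each) with 95% intervals from limma, without a block (circles) and with a replicate block (diamonds). The unadjusted intervals of Clock and Per2 lie above 0 in both fits, and those of the other 8 genes span 0.

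Same-numbered libraries deviated together, as did replicates 2 and 3 across the groups, and with a replicate block 1312 genes passed between genotypes (10.4%), of which 0 were among the 10 clock genes, and 2 of the 10, Clock and Per2, had an unadjusted p under 0.05, against 32.1% of all tested genes. Clock came closest, with a limma adjusted p of 0.0583 with this block and 0.0261 with replicate 1 against replicates 2 and 3 as the block, in a range of 0.0250 to 0.398 over its alternatives. In replicates 2 and 3 alone, Clock, Per2 and Cry2 passed (3 of 10), where 29.0% of all tested genes did, with log2 differences of 0.46, 0.55 and 0.42 and limma adjusted p of 0.0250, 0.0223 and 0.0384. Over their alternatives the adjusted p of Per2 ranged up to 0.509 and that of Cry2 up to 0.987. A share of 3 in 10 is close to the background of that comparison, which has 2 libraries per group.

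Among 22 other genes of the clock, 21 were tested (Rorb stayed under 0.5 FPKM in every library), 0 passed between genotypes in limma, and 5 (23.8%) had an unadjusted p under 0.05 (Btrc, Fbxw11 and Timeless lower, Usp2 and Tef higher), against 20.3% of all tested genes. Their median log2 difference was −0.17, with 9 of 21 above 0. With the replicate block, 2 of 21, Hlf and Timeless, passed as lower in knockout cells, a share near the 10.4% of all tested genes. Hlf, which encodes a D-box factor related to DBP, was at 13.36, 3.52 and 2.69 FPKM in control cells and 8.35, 0.17 and 0.32 FPKM in knockout replicates 1 to 3 (log2 difference −1.35, limma adjusted p = 0.0476 with the block and 0.472 without it). Timeless, a gene of replication fork protection that is also tied to the clock, was at 6.58, 3.63 and 3.85 FPKM in control cells and 2.58, 2.05 and 1.83 FPKM in knockout cells (log2 difference −0.82, limma adjusted p = 0.0418 with the block and 0.127 without it). All 12 proliferation genes likewise had log2 differences below 0, with a median of −0.50, 0 passing in limma and 5 with an unadjusted p under 0.05. The summed level of those 12 was 336.7, 254.7 and 261.8 FPKM in control cells and 229.9, 228.7 and 147.7 FPKM in knockout cells, most abundant in Pcna, and with the block 1 of them, Cdk1, was lower. The part of proliferation in the level of Timeless was not tested.

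Replicate number was tested next, across both genotypes. In the limma F-test, 0 of the 10 clock genes passed, where 636 of 12565 genes did (5.06%), and 2 of the 10, Arntl and Per1, had an unadjusted p under 0.05, against 27.5% of all tested genes. Arntl, Per1, Cry1 and Cry2 were higher in both replicate 1 libraries than in the other 4 libraries (4 of 10, against 24.1% of all tested genes). Replicate 1 exceeded the mean of replicates 2 and 3 by a log2 difference of 0.64 for Arntl (standard error 0.158, limma adjusted p = 0.131), 0.46 for Per1, 0.62 for Cry1 and 0.58 for Cry2. The size of these differences depended on single libraries. With 1 library left out they ranged from 0.43 to 0.85 for Arntl and 0.35 to 0.58 for Per1. For Cry1 the range was 0.33 to 0.91, and for Cry2 it was 0.21 to 0.95. Replicate 1 was above the others for 7 of the 10 clock genes and for 59.0% of all tested genes. For Clock and Per2 the difference was 0.26 and 0.18, for Nr1d2 0.07 (−0.04 after quantile normalization), and for Per3, Dbp and Nr1d1 it was −0.25, −0.23 and −0.04. The test rested on single libraries. Without knockout replicate 1, 4 of the 10 passed (Arntl, Per1 and Cry2 higher and Dbp lower in replicate 1), against 21.4% of all tested genes, and without control replicate 1 it was 1 of 10 (Cry1, higher), against 25.1%. In both cases replicate 1 is a single library and the spread comes from replicates 2 and 3 alone, so that these calls cannot tell a replicate from a library. Over all genes the same omissions gave 2694 and 3159 genes, and omission of control replicate 2 or 3 or knockout replicate 2 or 3 gave 308, 159, 294 and 149.

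**Figure D3:**
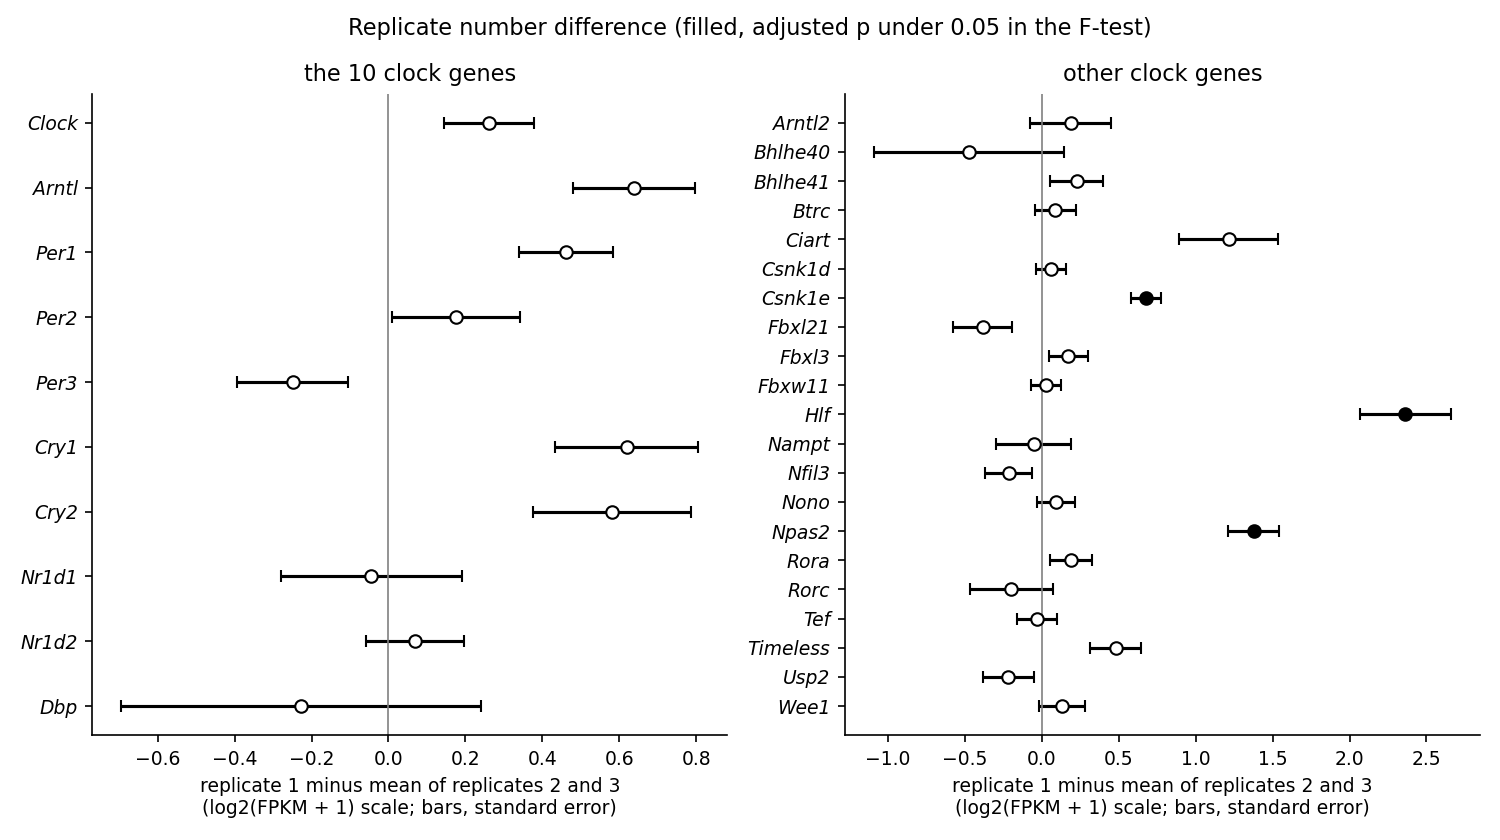
Log2 difference of replicate 1 from the mean of replicates 2 and 3 (horizontal axis, log2(FPKM + 1) scale, both genotypes together) with its standard error, for the 10 clock genes and for 21 other clock genes. Filled points passed the F-test of the replicate number, which were Hlf, Npas2 and Csnk1e with replicate 1 higher.

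Of the other clock genes, 3 of 21 (14.3%) passed the F-test, against 5.06% of all tested genes, each higher in replicate 1, namely Hlf (log2 difference 2.36, limma adjusted p = 0.0400), Npas2 (1.38, adjusted p = 0.0363) and Csnk1e (0.68, adjusted p = 0.0479). An unadjusted p under 0.05 was reached by 4 of 21 (19.0%), below the 27.5% of all tested genes. These 3 calls were not repeated under the alternatives. Npas2, which encodes a partner of ARNTL that can stand in for CLOCK, was at 6.62, 1.71 and 1.72 FPKM in control cells and 4.77, 1.11 and 1.73 FPKM in knockout replicates 1 to 3. Npas2 and its partner Arntl were thus both highest in the replicate 1 library of each genotype. Csnk1e, a kinase that phosphorylates PER proteins, was at 77.97, 47.56 and 50.58 FPKM in control cells and 65.75, 37.56 and 42.83 FPKM in knockout cells.

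Some fibroblast markers also differed by replicate number, in both directions. Of 7 fibroblast and adventitial markers, 4 passed the F-test, where 5.06% of all tested genes did, Dcn, Ly6a and Col14a1 lower and Dpt higher in replicate 1, and none of the 7 was under 0.5 FPKM in every library. Their summed level was 236.2, 844.5 and 715.5 FPKM in control cells and 142.5, 707.8 and 696.6 FPKM in knockout replicates 1 to 3, with Dcn most abundant on average, but Dpt in control replicate 1, Ly6a in control replicates 2 and 3 and Col14a1 in knockout replicate 1. Dcn was at 13.88 and 25.59 FPKM in the replicate 1 libraries of the control and knockout groups and at 256.7 to 382.9 FPKM in the other 4. Endothelial and leukocyte markers were low in sum but not absent: the summed level was 1.43 to 5.61 FPKM for 7 endothelial markers, led by Pecam1 in control and Kdr in knockout libraries, with Cdh5, Tek, Tie1, Vwf and Esam under 0.5 FPKM in every library, and 4.94 to 8.96 FPKM for 6 leukocyte markers, led by Cd68, with Ptprc, Adgre1 and Tyrobp under 0.5 FPKM. Between genotypes, Acta2 (1 of 5 tested smooth muscle markers) and Dpt (1 of 7 fibroblast markers) passed in limma, both lower in knockout cells, and 0 of 1 endothelial and 0 of 3 leukocyte markers did, with 1 of each at an unadjusted p under 0.05 (shares of all tested genes 2.44% and 20.3%). The fibroblast list did not move 1 way, since 3 of its 7 members had log2 differences above 0, and with the replicate block Dpt and Ly6a were lower and Col14a1 was higher in knockout cells (log2 difference 2.87, limma adjusted p = 0.00320 with the block and 0.0683 without it). By replicate number, 0 of 5 smooth muscle, 0 of 1 endothelial and 0 of 3 leukocyte markers passed in limma (0 at an unadjusted p under 0.05), and 0 of 12 proliferation genes passed (4 at an unadjusted p under 0.05, against 27.5% of all tested genes), although all 12 stood higher in replicate 1, with a median log2 difference of 0.39. The part of the fibroblast markers and of proliferation in the replicate difference of the clock genes was not tested.

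For the next 2 lists, the shares of all tested genes to set beside the counts are 2.44% by genotype (20.3% by unadjusted p), 10.4% with the replicate block and 5.06% by replicate number (27.5% by unadjusted p). Of 9 glucocorticoid response genes, 8 were tested, and 0 passed between genotypes in limma (1 with an unadjusted p under 0.05). By replicate number 2 passed, Sgk1 and Dusp1, both higher in replicate 1. The list as a whole did not follow them. Replicate 1 was higher for 3 of the 8 (37.5%, against 59.0% of all tested genes), with a median log2 difference of −0.03. Klf9 did not pass but was lower in both replicate 1 libraries than in the other 4 (log2 difference −0.72). Dusp1, also an early response gene to serum, was at 167.9, 58.1 and 55.6 FPKM in control cells and 116.8, 38.2 and 35.6 FPKM in knockout cells (log2 difference between replicate 1 and the others 1.59, limma adjusted p = 0.00944). With the replicate block 3 of the 8 passed, Klf9 higher and Fkbp5 and Dusp1 lower in knockout cells, members of 1 list in both directions. Of 12 immediate early genes, 10 were tested, and 0 passed by genotype (4 with an unadjusted p under 0.05) or by replicate number (1 with an unadjusted p under 0.05) in limma, while 1 of 10, Egr1, was higher in knockout cells with the block.

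The genotype difference was then compared between replicate 1 and replicates 2 and 3, a comparison chosen after the values of replicate 1 were seen, so that its p-values describe these libraries and are no independent evidence of a difference. Replicate 1 has 1 library per genotype, so that the spread comes from replicates 2 and 3 alone and the replicate 1 libraries are assumed to vary as little as those. In this limma fit an adjusted p under 0.05 was reached by 2 of the 10 clock genes, Dbp and Nr1d1, and by 8.62% of all tested genes. In FPKM the knockout was 5.85 times the control for Dbp in replicate 1 and 0.982 and 1.49 times the control in replicates 2 and 3, a difference of the log2 differences of 1.94 (standard error 0.253, limma adjusted p = 0.00533). For Nr1d1 the factor was 0.495 in replicate 1 and 1.09 and 0.879 in replicates 2 and 3 (difference −0.91, standard error 0.209, limma adjusted p = 0.0388). The adjusted p of Nr1d1 was 0.110, 0.0692 and 0.0593 without control replicate 2, knockout replicate 2 or knockout replicate 3, and with no filter on low FPKM neither passed (0.0951 for Dbp and 0.139 for Nr1d1, the upper ends of ranges from 0.00242 and 0.0384 in limma). Cry2, which crossed sides between the pairs, missed the threshold with a difference of −0.74 (limma adjusted p = 0.0715).

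**Figure D4:**
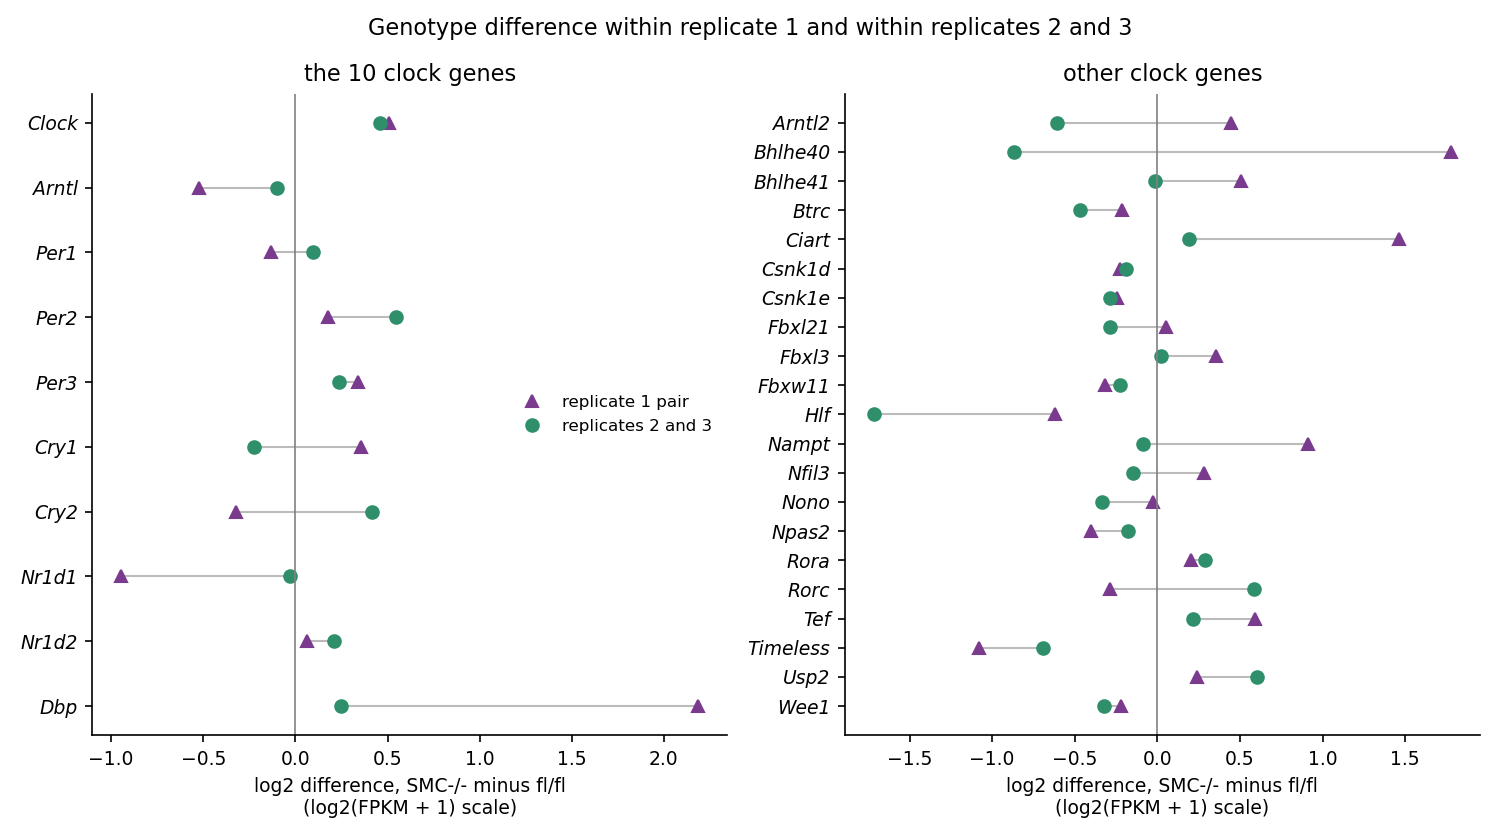
Log2 difference between genotypes (horizontal axis, Smyd2 SMC-/- minus Smyd2 fl/fl on log2(FPKM + 1)) in the replicate 1 pair (triangles, 1 library per genotype) and in replicates 2 and 3 (circles, 2 libraries per genotype), for the 10 clock genes and 21 other clock genes. Dbp stands at 2.19 in replicate 1 and 0.25 in replicates 2 and 3, and Nr1d1 at −0.94 and −0.03.

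In the same comparison 4 of the 21 other clock genes passed, namely Bhlhe40 (difference of the log2 differences 2.64, limma adjusted p = 0.00179), Ciart (1.27, adjusted p = 0.0253), Arntl2 (1.05, adjusted p = 0.0427) and Nampt (1.00, adjusted p = 0.0133). Bhlhe40, which encodes the E-box repressor DEC1, was at 8.96, 31.72 and 35.44 FPKM in control cells and 33.12, 20.96 and 15.34 FPKM in knockout replicates 1 to 3. Like Dbp, it was lowest in control replicate 1, but the knockout libraries of replicates 2 and 3 were below their controls. Ciart, which encodes the repressor CHRONO, was at 1.25, 0.55 and 0.46 FPKM in control cells and 5.19, 0.84 and 0.60 FPKM in knockout cells, so that 1 library, knockout replicate 1, stood apart from the other 5. In other lists the comparison, passed by 8.62% of all tested genes, was passed by 3 of 8 glucocorticoid response genes (Tsc22d3, Errfi1 and Hsd11b1), 4 of 10 immediate early genes (Fos, Fosl1, Jun and Ier3), 3 of 5 smooth muscle markers (Tagln, Cnn1 and Lmod1), 3 of 7 fibroblast markers (Pdgfra, Ly6a and Lum) and 0 of 12 proliferation genes (0 with an unadjusted p under 0.05). These went both ways, the difference being above 0 for Tsc22d3, Fos, Pdgfra and Ly6a and below 0 for the other 9. Tsc22d3, a glucocorticoid target, was at 6.73, 15.54 and 13.91 FPKM in control cells and 26.95, 14.00 and 11.35 FPKM in knockout cells, with its lowest and highest values, like those of Dbp, in replicate 1. The part of glucocorticoid or serum signals in the levels of Dbp and Nr1d1 was not tested.

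Ratios of 2 genes within a library do not depend on its scaling. Dbp was 0.284, 1.71 and 1.39 times Arntl in control cells and 2.50, 1.71 and 2.41 times Arntl in knockout replicates 1, 2 and 3, with the lowest and the highest ratio both in replicate 1. Nr1d1 was 2.03, 2.64 and 3.27 times Arntl in control cells and 1.51, 2.94 and 3.34 times Arntl in knockout cells, lowest in replicate 1 of each genotype. Over the 6 libraries, the genes whose centred log2 profiles lay closest to that of Arntl were Hspa9, Cnnm4 and Xpo6 (root mean square differences of 0.0392, 0.0422 and 0.0472), and those closest to Dbp were Shisa2, Actr3b and Clec11a (0.0839, 0.118 and 0.148). None of these 6 is among the clock genes listed here, and Shisa2 was at 2.28, 7.61 and 6.24 FPKM in control cells and 13.92, 8.58 and 8.70 FPKM in knockout cells.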

How the data were processed

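RNA-seq of 3 Smyd2 fl/fl and 3 Smyd2 SMC-/- VSMC libraries was analysed from the FPKM values that the authors deposited for 18112 genes, of which 1125 had no symbol. The submitters' processing notes name Bowtie2 and RSEM, with versions and genome build not given in the sources used here. All 6 value columns were matched to samples by their labels.

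Values were analysed as log2(FPKM + 1) for genes averaging 0.5 FPKM or more, with limma 3.58.1 (trended, robust eBayes after lmFit) in R 4.3.3, with Benjamini-Hochberg adjustment over all tested genes and a threshold of 0.05. Log2 differences on this scale understate those of low genes. The replicate number was tested by an F-test in a fit with genotype. The fits of genotype, replicate number and their interaction were tested on simulated data with equal spread in all libraries. Exact permutation tests, promoter searches, depth estimates and figures used Python 3.11.15 with numpy 2.4.6, pandas 2.3.3, scipy 1.17.1 and matplotlib 3.10.9. Depth was estimated from low values, 380 to 441 per library, among 4343 genes with 1 listed transcript. Of these values, 67.6% to 73.4% came within 0.15 of whole fragments, at the depth and length offset chosen to make this share highest. The share by chance is 30.0% for a fixed setting and would be higher for a chosen one, so that the estimates are approximate.

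The replicate numbers of the labels were checked for pairing: same-numbered libraries of the 2 groups deviated from their group means together, with correlations across genes of 0.615, 0.460 and 0.527 for replicates 1, 2 and 3. Control replicate 2 correlated as much with knockout replicate 3 (0.461), and control replicate 3 with knockout replicate 2 (0.439), so that the values set replicate 1 apart but do not match replicates 2 and 3 individually. Deviations from a group mean cancel out, so that those of replicates 2 and 3 follow in part from that of replicate 1. The genotype fit was repeated with a replicate block and with a block of replicate 1 against replicates 2 and 3.

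Named in the text are the 10 clock genes, Smyd2, the members of fixed lists that passed by genotype with or without the replicate block, by replicate number or in the comparison added later, or that were the most abundant, the tested or the near-absent ones of a marker list (other clock genes, glucocorticoid response, immediate early serum response, proliferation, and markers of smooth muscle, endothelial, fibroblast and leukocyte cells), and the 3 genes with the profiles closest to Arntl and to Dbp. Other clock genes with an unadjusted p under 0.05, the values of Shisa2 and Dcn and the replicate difference of Klf9 were singled out after their values were seen. The clock genes and the lists were chosen with earlier results of these data known. Alternatives were a pseudocount of 0.1, no filter, TPM, quantile normalization, other blocks, replicates 2 and 3 alone, stricter thresholds and leaving out each library in turn. The comparison of genotype differences between replicate 1 and replicates 2 and 3 was added after the data were seen.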

Additional observations from a re-analysis of the deposited data

Results flagged for a closer look

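For 2 clock genes the difference between genotypes in replicate 1 stood apart from that in replicates 2 and 3. The gap was 1.94 on the log2 scale for Dbp, with Smyd2 SMC-/- higher in replicate 1, and −0.91 for Nr1d1, with Smyd2 SMC-/- lower in replicate 1. The limma comparison behind both was chosen after these values were seen and has 1 library per genotype in replicate 1, so that its p-values are no independent evidence, and the cause was not tested. It was passed by 8.62% of all tested genes, and with no filter on low FPKM neither gene passed. Nr1d1 also did not pass without control replicate 2, knockout replicate 2 or knockout replicate 3.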

How the results depend on the processing

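The number of clock genes that passed between genotypes was 0 under every alternative except a block of replicate 1 against replicates 2 and 3 (1) and replicates 2 and 3 alone (3). Neither changed a direction, which a block cannot do by construction. The same alternatives gave 2550 and 3650 genes over the whole table, the replicate block 1312, a fold change above 2 with an adjusted p under 0.01 gave 53, and omission of single libraries 34 to 686. The full replicate block changed no call of the 10 clock genes. By replicate number, 102 genes passed with no filter, 61 at an adjusted p under 0.01 and 149 to 3159 with single libraries left out, when 0 to 4 clock genes passed. For the difference of differences, added after the data were seen, 0 clock genes passed with no filter (0.386% of all genes), 3 after quantile normalization (6.75%) and 1 to 2 with a library of replicates 2 or 3 left out (3.61% to 10.2%).

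Of the log2 differences of clock genes, 117 of 130 between genotypes and 86 of 100 between replicate numbers kept their direction and side of the threshold, and 9 and 9 turned around, all for genes that had not passed. Part of this tally is fixed by construction. No clock gene had passed in the main fits, and the blocks and the lack of a filter left log2 differences unchanged. Rescaling to TPM, which moved the median log2 difference of all tested genes by 0.11, gave Cry1 a genotype difference of 0.0747, below that shift. Quantile normalization gave Nr1d2 a replicate difference of −0.0435. With single libraries left out, the genotype difference ranged from −0.39 to 0.0411 for Arntl, −0.33 to 0.15 for Cry1, −0.12 to 0.21 for Per1, −0.0152 to 0.49 for Cry2, −0.47 to −0.17 for Nr1d1 and 0.49 to 1.16 for Dbp, which without control replicate 1 was no longer the greatest of the 10. The replicate difference then ranged from −0.00876 to 0.36 for Per2, −0.0207 to 0.16 for Nr1d2, −1.20 to 0.74 for Dbp and −0.50 to 0.41 for Nr1d1. It stayed above 0 but changed in size for Cry1 (0.33 to 0.91) and Cry2 (0.21 to 0.95). Fewer libraries or, with no filter, more genes tested are part of these alternatives by construction, and other causes were not tested.

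At the lowest clock gene value, about 88.6 fragments, counting error alone is 10.6%, which leaves out the spread between cultures. Genotype cannot be separated from an unrecorded harvest hour.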
